A study of Homo sapiens with 12 samples.

Results

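The clustered protocadherins are the members of the alpha, beta and gamma protocadherin gene arrays that stand in a row on chromosome 5. They were taken as every gene whose symbol is PCDH followed by A, AC, B, GA, GB or GC and a number, which gave 54 of the 62703 genes in the table. Of these, 16 belong to the alpha cluster, 16 to the beta cluster and 22 to the gamma cluster. A count of 10 or more in any library was found for 32 of the 54 members, which were 10 alpha, 9 beta and 13 gamma genes.

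The RNA came from microglia-like cells (iMGLs) differentiated from WTC11, a human induced pluripotent stem cell line, by way of hematopoietic precursors. The line had been edited with CRISPR to give 3 LACTB KO clones, called A, B and C, and 3 WT clones, called J, K and L, all isogenic apart from the edit as labelled. Each clone was taken through 2 differentiations without further treatment, so that there were 6 libraries of each genotype and 12 in all. A library is named by its clone and differentiation, as in J1 for WT clone J in differentiation 1. The edit is carried by the clone, so the clone is the replicate for LACTB, and with 1 line a clone a trait of the clone cannot be told apart from its edit. All cells received IL-34, TGFb and M-CSF, with CX3CL1 and CD200 added for the last days.

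Clustered protocadherins are cell-surface proteins of the cadherin superfamily, known above all from neurons. A neuron switches on a small set of them, proteins of the set join into recognition units that bind the same combination on a facing membrane, and this lets the branches of a cell tell their own kind from others. In the alpha and gamma clusters each gene has its own promoter and its own large first exon, which encodes the extracellular, transmembrane and first cytoplasmic part and is spliced to constant exons shared by the cluster. Beta genes are single exons with no constant part. Choice among the promoters is known to depend on DNA methylation and on CTCF and cohesin, which bring a promoter to a distant enhancer, while the C-type genes at the ends of the alpha and gamma arrays are used in a less selective manner.

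On GRCh38 and in the GENCODE version 44 annotation all members lie on the plus strand of chromosome 5. The alpha cluster spans 140786136 to 141012347, the beta cluster 141051374 to 141249365 and the gamma cluster 141330514 to 141512977. In the alpha cluster 15 of 16 canonical transcripts ended in the same constant exons of 59, 89 and 2721 bases. The exception was PCDHA14, a pseudogene with a count of 0 in all 12 libraries. All 22 gamma transcripts shared constant exons of 59, 89 and 2029 bases. A read that lies in a constant exon cannot by itself be given to a member, and the deposited values are estimated counts. Of the values above 0, 88.5% were fractions in the gamma cluster, 66.0% in the alpha cluster and 43.8% in the beta cluster, against 28.9% over all genes. The share of a member's count that came from its own first exon is not known from these values. The TruSeq RNA kit v2 is by design one that does not mark strand, and how strand was treated in counting is not given in the sources used here, so that transcripts antisense to the locus cannot be told apart from the members.

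Promoters are shown first because members differ in which of these short windows is used. RefSeq start-site windows on GRCh38.p14, from 250 bases before to 50 after the start, were found for 47 of the 54 members. No window was matched for PCDHA3, PCDHA13, PCDHA14, PCDHB6, PCDHB11, PCDHGA12 and PCDHGC5. The 4 alpha windows printed here are those of the 3 alpha genes with 10 or more counts in every library and of PCDHA1, whose highest count was 4. Capitals mark TGTCGCT, a stretch that contains the CGCT core of the conserved element of protocadherin promoters, and all sequences read 5′ to 3′ on the plus strand.

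PCDHA4, chr5:140806962-140807028: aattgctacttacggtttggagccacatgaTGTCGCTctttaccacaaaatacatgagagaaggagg
PCDHA10, chr5:140855824-140855890: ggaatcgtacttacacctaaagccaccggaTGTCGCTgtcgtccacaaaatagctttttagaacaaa
PCDHA12, chr5:140875227-140875293: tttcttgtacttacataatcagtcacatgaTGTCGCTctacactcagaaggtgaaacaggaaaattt
PCDHA1, chr5:140786069-140786135: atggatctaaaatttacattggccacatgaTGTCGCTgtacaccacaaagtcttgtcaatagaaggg

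The beta gene with the highest level, PCDHB2, has the related stretch GGTGGCGCT, in capitals below. Among gamma genes the windows are those of PCDHGA10, PCDHGB6 and PCDHGB4, which had 10 or more counts everywhere, of PCDHGA7, which reached 10 in a single clone, and of PCDHGA2, whose highest count was 3. In these the capitals mark CGCTGT. PCDHGB7 and PCDHGC3 also had 10 or more counts everywhere but are not printed. The PCDHGB7 window lacked CGCTGT and the PCDHGC3 window held it.

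PCDHB2, chr5:141094525-141094593: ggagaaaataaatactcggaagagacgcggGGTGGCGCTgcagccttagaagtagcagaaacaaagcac
PCDHGA10, chr5:141412917-141412982: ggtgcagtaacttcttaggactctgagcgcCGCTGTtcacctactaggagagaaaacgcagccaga
PCDHGB6, chr5:141407910-141407975: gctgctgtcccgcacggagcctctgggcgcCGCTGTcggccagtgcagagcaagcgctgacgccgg
PCDHGB4, chr5:141387603-141387668: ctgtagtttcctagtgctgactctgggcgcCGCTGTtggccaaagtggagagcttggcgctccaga
PCDHGA7, chr5:141382635-141382700: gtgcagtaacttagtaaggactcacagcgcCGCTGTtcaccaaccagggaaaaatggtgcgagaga
PCDHGA2, chr5:141338689-141338754: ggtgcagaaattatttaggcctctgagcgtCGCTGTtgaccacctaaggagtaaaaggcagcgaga

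The printed motifs begin between 40 and 81 bases before the annotated start. They were picked from these windows by eye, were searched on both strands and overlap one another in the CGCT core. TGTCGCT was in 10 of 13 alpha windows and in 1.76% of all 35116 windows in the table. GGTGGCGCT was in 13 of 14 beta windows, all but PCDHB1, against 0.501% of all windows. CGCTGT was in 17 of 20 gamma windows, all but PCDHGB3, PCDHGB7 and PCDHGA11, against 11.2% of all windows. It was also in 7 of 13 alpha windows and in 1 of 14 beta windows. The core CGCT alone was in 46 of 47 windows, with PCDHA9 as the exception, but also in 70.0% of all windows. Members with low and with high counts both carried it, at 18 of 18 windows of members that stayed under 10 counts and 28 of 29 windows of the others. The 4 C-type windows, those of PCDHAC1, PCDHAC2, PCDHGC3 and PCDHGC4, held 15 to 27 CG dinucleotides, while the 43 other windows held 2 to 16 with a median of 7, beside a median of 14 over all windows. These matches describe letters and not binding.

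The libraries held 24153233 to 28406943 estimated counts, and clustered protocadherins made up 0.0117% to 0.0248% of a library. Microglial markers were present, with all 15 listed genes at 10 or more counts in some library and a summed level of 7950 to 10100 CPM (counts per 1e+06, with the library total scaled by TMM, the trimmed mean of M values), although TMEM119 was low at 0.315 to 10.7 CPM. LACTB itself was at 71.3 to 97.9 CPM in WT libraries, at 7.48 to 9.77 in those of KO clones A and C, and at 44.4 and 51.6 in those of KO clone B. Libraries J1 and K2 stood apart in transcripts of another cell type. All 20 stromal markers reached 10 counts somewhere, none was at 0 in every library, and their summed level was 16500 CPM in J1 and 12000 in K2, against 140 to 2410 in the others. All cells of a culture were sequenced together, so more cells of a type and more RNA per cell cannot be told apart.

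Each cluster was dominated by a few members, and these were the same in most libraries. In the gamma cluster PCDHGC3 took 29.6% to 57.7% of the counts and PCDHGA10 16.6% to 37.0%. PCDHGC3 led in 10 of 12 libraries and PCDHGA10 in the other two, which were J1 and J2. The beta cluster was PCDHB2 for the most part, at 63.6% to 80.2%. In the alpha cluster PCDHA10 and PCDHA4 shared the lead, with 20.5% to 49.5% and 18.5% to 49.9%.

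**Figure D1:**
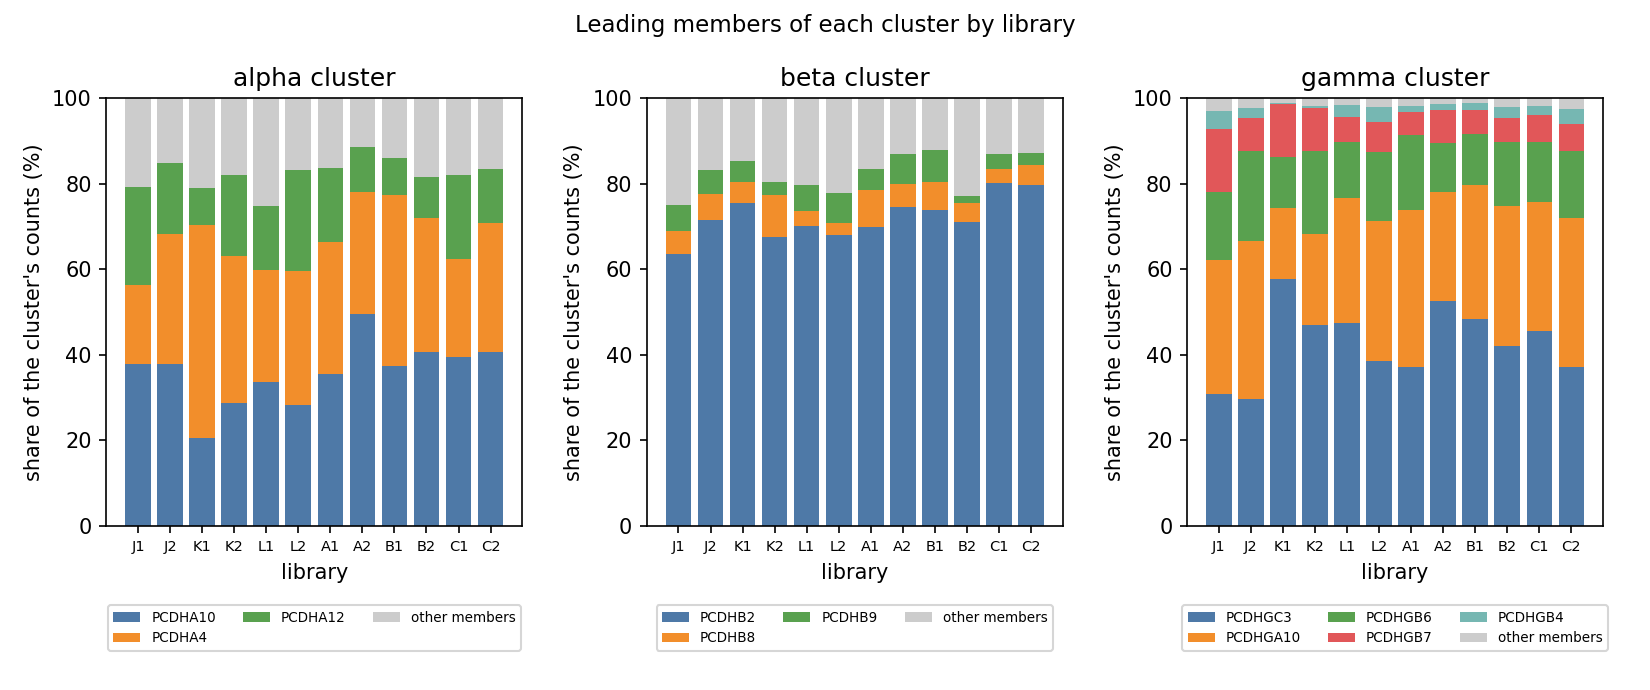
Share of each cluster's counts (%, vertical axis) taken by its leading members in each of the 12 libraries (horizontal axis). PCDHB2 holds 63.6% or more of the beta counts in every library, and PCDHGC3 and PCDHGA10 exchange the lead in the gamma cluster of J1 and J2.

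Per length of the canonical transcript, the mean level over the 12 libraries was highest for PCDHGC3 with 12.4 CPM per kilobase. It was followed by PCDHGA10 with 8.73, PCDHGB6 with 4.5, PCDHGB7 with 2.38 and PCDHB2 with 1.45 CPM per kilobase. The highest alpha gene, PCDHA10, came to 0.791 CPM per kilobase. All 9 members with 10 or more counts in every library stood at the head of this order, from PCDHGC3 to PCDHA12 at 0.362. The 22 members that never reached 10 counts lay between 0 and 0.029 CPM per kilobase.

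**Figure D2:**
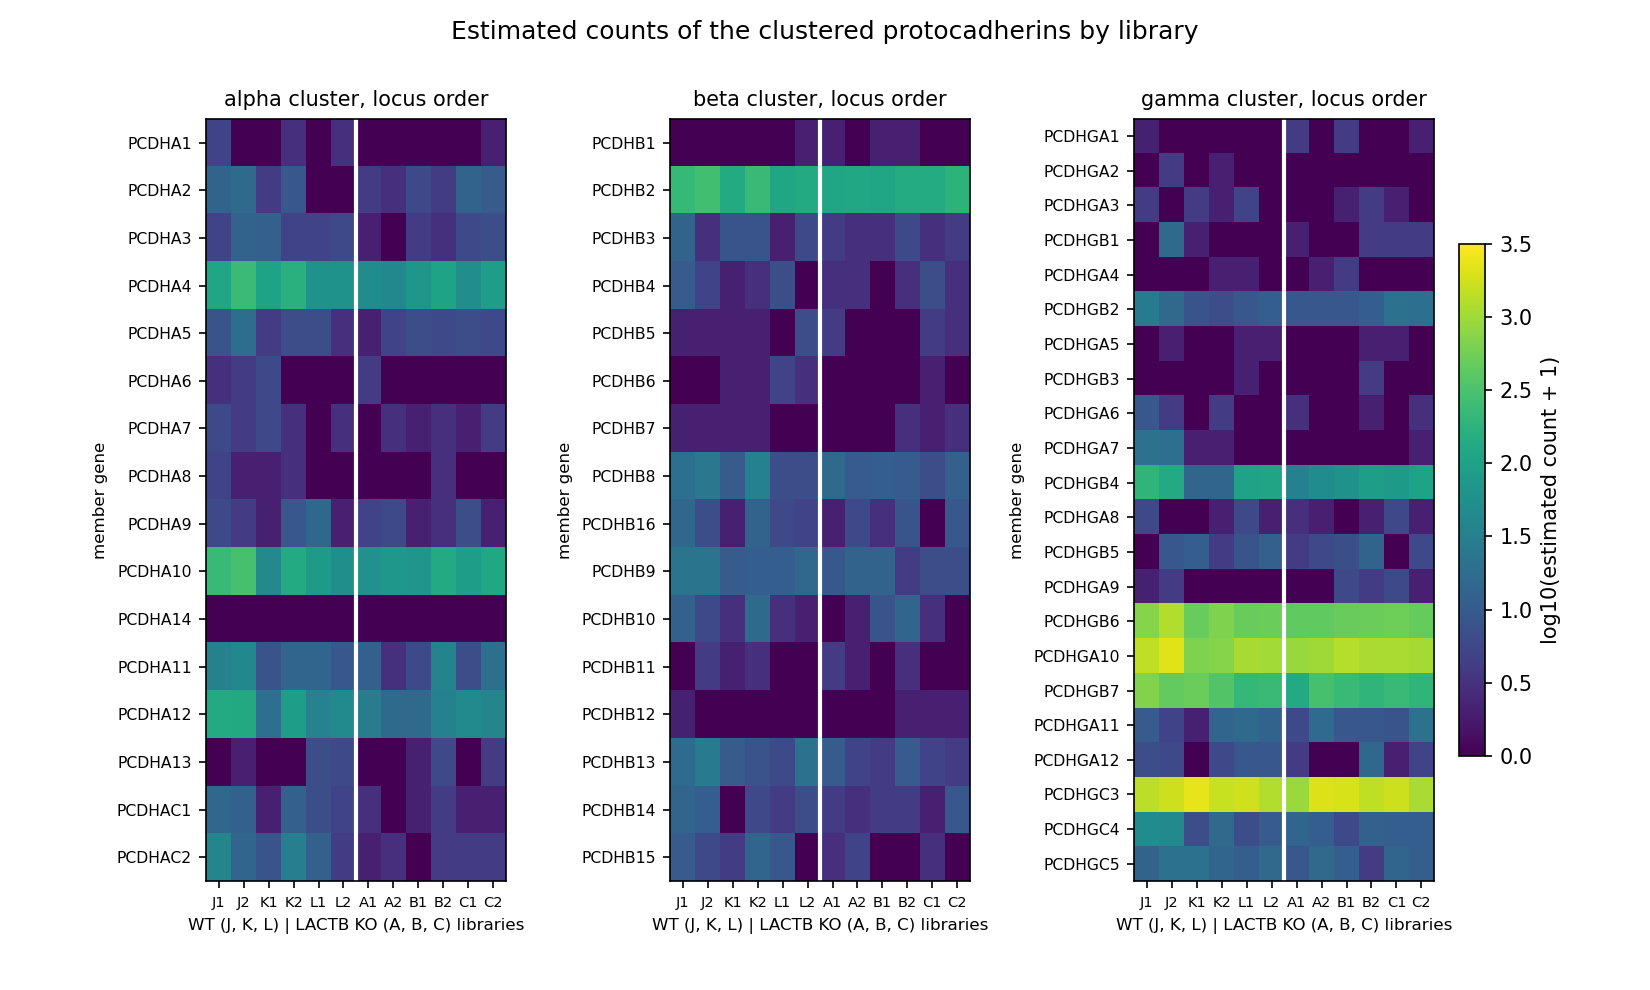
Estimated counts, as log10 of the count plus 1 (colour), of all 54 members in locus order (rows) in the 6 WT and 6 LACTB KO libraries (columns). Bright rows are few in each cluster, PCDHA14 is at 0 throughout, and PCDHGA7 is above 1 count only in J1 and J2.

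A member counted as detected in a library when it had 10 or more counts. On that measure J1 and J2 had 24 members each, K1 had 12, K2 19, and L1 and L2 14 each. Among LACTB KO libraries A1 had 12, A2 13, B1 11, B2 14, C1 12 and C2 13. The WT range of 12 to 24 thus overlapped the KO range of 11 to 14, and the highest numbers belonged to clone J and to K2.

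Both differentiations of clone J detected 21 members in common, which was 87.5% of the members of each. Clone K shared 10, or 83.3% of those in K1 and 52.6% of those in K2. The other 4 clones shared 9 to 11. Among all clones, 9 members were detected in every library, namely PCDHA4, PCDHA10, PCDHA12, PCDHB2, PCDHGB4, PCDHGB6, PCDHGA10, PCDHGB7 and PCDHGC3. PCDHB14 and PCDHGA7 were detected in both libraries of clone J and in no other.

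Over the 32 members that reached 10 counts, levels in log2(CPM + 0.1) were alike between any libraries, with Pearson's r of 0.924 to 0.964 for the 6 pairs of one clone and 0.874 to 0.974 for the 24 pairs of other clones of a genotype. These correlations are across genes, whose level differences they mostly carry. When each member's mean was taken away, the library with the most similar deviations was that of the same clone for 6 of 12 libraries, which were both of J, both of L, K1 and C1. K2 was nearest to J1, the other library rich in stromal transcripts.

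The alpha members that passed 10 counts in at least 6 libraries were PCDHA4, PCDHA10, PCDHA11 and PCDHA12, all of the alternate kind that neurons choose among. PCDHA10 had 230 and 303 counts in J1 and J2, 43 and 137 in K1 and K2, and 80 and 54 in L1 and L2. Its KO counts were 58 and 72 in clone A, 66 and 138 in B and 91 and 123 in C. Clone J stood above all other libraries, and the other 4 WT libraries, at 43 to 137, ran across and below the KO range of 58 to 138. PCDHA4 had 113 and 244 in J, 105 and 163 in K, 62 and 60 in L, 50 and 42 in A, 70 and 106 in B, and 53 and 91 in C. Its 2 highest libraries were J2 and K2. PCDHA12 had 139 and 133 in J, 18 and 91 in K, 35 and 45 in L, 29 and 15 in A, 15 and 33 in B, and 45 and 38 in C. Clone J and K2 exceeded every other library, whereas K1 lay within the KO range. PCDHA11 was low, with 34 and 42 in J, 7 to 13 in K and L, and 2 to 36 in the KO libraries.

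The C-type alpha genes were low and uneven. PCDHAC2, known for its part in the even spacing of serotonergic axons, had 38 and 13 counts in J, 7 and 30 in K and 11 and 3 in L, against 1 and 2 in A, 0 and 3 in B and 3 and 3 in C. Its 2 highest libraries were the stromal-rich J1 and K2, and L2 was level with the highest KO libraries at 3. PCDHAC1 had 14 and 11 in J, 1 and 11 in K and 6 and 4 in L, against 0 to 3 in the KO libraries. PCDHA2, PCDHA3, PCDHA5 and PCDHA9 also reached 10, with highest counts of 15, 12, 17 and 14. The 6 other alpha genes stayed at 6 counts or fewer.

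In the beta cluster PCDHB2 had 220 and 278 counts in J, 138 and 228 in K and 117 and 138 in L. The KO clones had 116 and 124 in A, 113 and 140 in B and 142 and 181 in C. J1, J2 and K2 were the highest, and the other WT libraries overlapped those of the KO clones. PCDHB8 ranged from 6 to 34 in WT and from 6 to 15 in KO libraries, with its highest value in K2. PCDHB9 ranged from 9 to 22 in WT and from 3 to 12 in KO libraries, with J1 and J2 highest. PCDHB13 had 16 and 28 in J, 9 and 7 in K and 5 and 20 in L against 3 to 9 in the KO libraries. PCDHB3, PCDHB10, PCDHB14, PCDHB15 and PCDHB16 had highest counts of 12 to 15, and the remaining 7 beta genes stayed under 10.

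Levels in the gamma cluster were higher. PCDHGC3, a C-type gene known to bind Axin1 and dampen Wnt signaling, had 1425 and 1730 counts in J, 2340 and 1612 in K and 1754 and 1237 in L. It had 926 and 2037 in A, 1969 and 1446 in B and 1700 and 1130 in C. The genotypes overlapped over nearly the whole range, and libraries of a clone differed as much as clones did. Its mean was 61.2 ± 12.7 CPM in WT and 56.5 ± 15.2 in KO libraries (SD, n = 6 libraries of 3 clones).

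PCDHGA10, an alternate gamma gene, followed the clone more closely. It had 1463 and 2163 counts in J, 673 and 728 in K and 1086 and 1046 in L, with 910 and 987 in A, 1274 and 1127 in B and 1124 and 1055 in C. J1 and J2 were the highest and K1 and K2 the lowest of the 12, and clone L lay among the KO clones. PCDHGB4 showed the widest spread of the members in the clone comparison, with 196 and 138 in J, 13 and 13 in K and 104 and 108 in L. Its KO counts were 34 and 49 in A, 61 and 89 in B and 81 and 106 in C. Both K libraries were below all others.

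PCDHGB6 had 732 and 1237 counts in J, 482 and 667 in K and 487 and 517 in L, while the 6 KO libraries were close together at 435 to 525. In CPM that was 25.2 ± 11 in WT and 17.8 ± 0.847 in KO libraries (SD, n = 6). PCDHGB7 had 690 and 449 in J, 497 and 352 in K and 216 and 229 in L, against 136 and 299 in A, 225 and 194 in B and 238 and 192 in C. J and K were above every KO library for PCDHGB7, and L was within their range.

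The C-type genes PCDHGC4, which is known to be needed for the survival of neurons in mice, and PCDHGC5 were low. PCDHGC4 had 50 and 43 counts in J and 5 to 15 in the other 10 libraries. PCDHGC5 ranged from 10 to 19 in WT and from 3 to 15 in KO libraries. PCDHGA7 had 20 and 18 counts in J, 1 and 1 in K, 0 and 0 in L, and 0 in all KO libraries but C2, which had 1. A count of 0 in a library of this depth allows up to 3 counts. PCDHGB1, PCDHGB2, PCDHGB5, PCDHGA11 and PCDHGA12 also reached 10, with highest counts of 12 to 26, and PCDHGB1 did so in J2 alone with 15. The other 9 gamma genes stayed under 10.

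**Figure D3:**
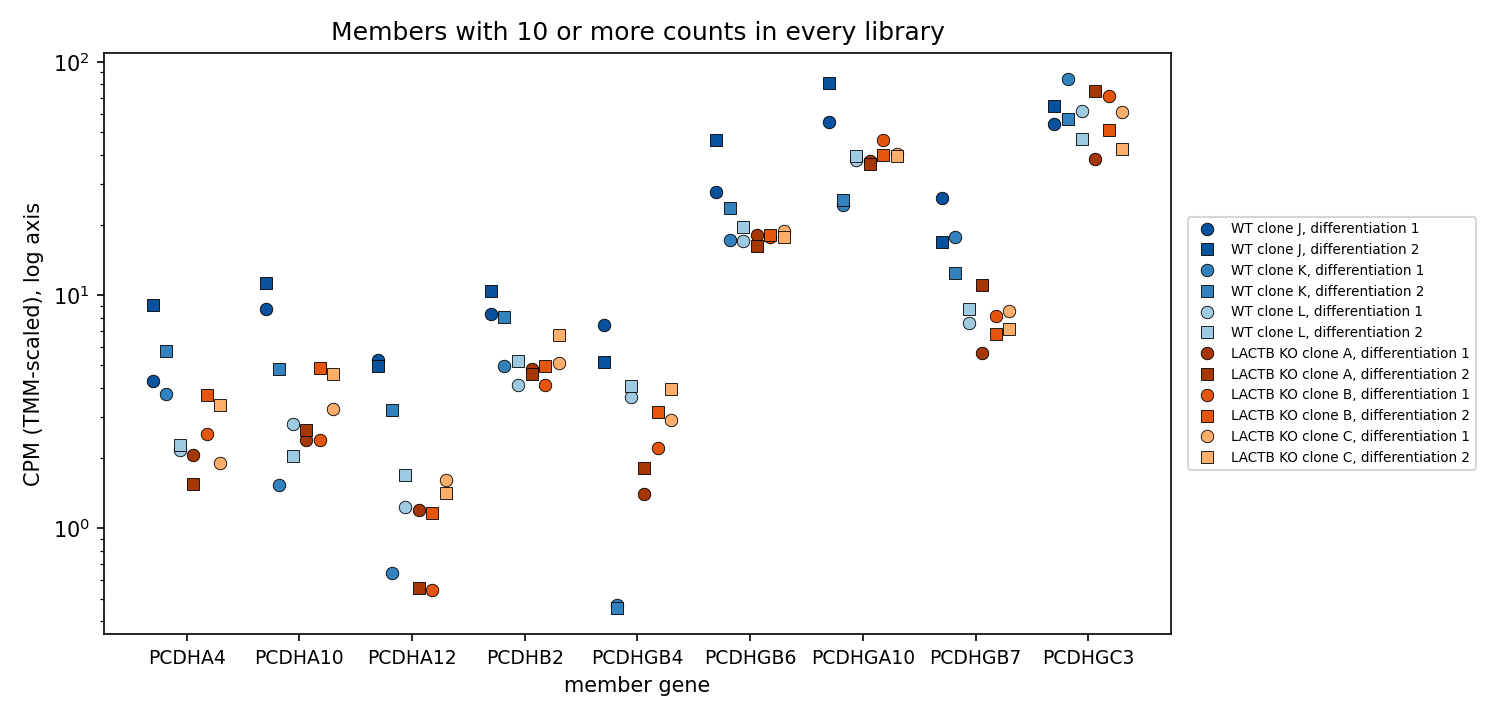
Level in CPM on a log axis (vertical) of the 9 members with 10 or more counts in every library (horizontal), with WT clones in blue, LACTB KO clones in orange, circles for differentiation 1 and squares for differentiation 2. For PCDHGB4 both K libraries lie at 0.467 and 0.457 CPM, below all others, and for PCDHGA10 at 24.2 and 25.6 CPM.

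Whether clones of a genotype differed by more than their 2 differentiations was tested over the 12 libraries with edgeR's quasi-likelihood test. The filter on low counts kept 13 members among 15530 genes. None of the 13 had a Benjamini-Hochberg adjusted p under 0.05, a call made for 7 genes (0.0451%) over the whole table. An unadjusted p under 0.05 was reached by 7 of the 13, which were PCDHA4, PCDHA10, PCDHB2, PCDHGB4, PCDHGB6, PCDHGA10 and PCDHGC4, beside 8.92% of all genes. PCDHGB4 came nearest with an adjusted p of 0.0591, and its mean CPM was 13.6 times as high in J as in K among WT clones and 2.13 times as high in C as in A among KO clones. PCDHGA10 followed with an adjusted p of 0.103 and ranges of 2.73 and 1.16 times, then PCDHGC4 with 0.289. PCDHGC3 had the highest adjusted p, 0.949, and ranges of 1.3 and 1.19 times. With DESeq2, 4 of the 13 were called (PCDHA10, PCDHGB4, PCDHGB6 and PCDHGA10), as were 703 genes in all. Over all alternatives the adjusted p of PCDHGB4 ran from 8.4e-11 with DESeq2 to 0.545 without clone K, so its place at the head rests on that clone. Without clone J the number at an unadjusted p under 0.05 was 3 of 14, and the share of all genes in that fit was not taken.

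The clone range among WT clones exceeded that among KO clones for 12 of the 13 members, the exception being PCDHGC5, and the highest WT clone was J for 12, with K for PCDHGC3. Shares over all genes were not taken for these counts. In summed level every cell type marker list also had its wider range in WT libraries. Microglial markers, for example, ran from 8150 to 10100 CPM in WT and from 7950 to 8660 in KO libraries. Among the 32 members with 10 counts in any library, J1 and J2 were the 2 highest libraries in CPM for 14, against 7.98% of the 18543 genes with such a count. They included 6 alpha, 3 beta and 5 gamma genes. Of them, PCDHB14 and PCDHGA7 reached 10 counts only in J1 and J2, and PCDHA5 only in J2. These genes are thus among the 32 through clone J alone. K1 and K2 were the 2 lowest for 3 members, PCDHGB2, PCDHGB4 and PCDHGA10, against 1.45% of genes. These patterns were picked after the values were seen.

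Members were also set beside the stromal transcripts, library by library. J1 and K2, the stromal-rich libraries, were the 2 highest for PCDHAC2, PCDHB15 and PCDHB16, 3 of 32 members, against 5.14% of genes. PCDHB16 reached 10 counts only in J1 and K2 and PCDHB15 only in K2, so both are among the 32 through these libraries alone. That leaves PCDHAC2 as the only other member with this order, so the count does not show that members moved with stromal transcripts. For the alpha cluster as a whole, the summed level was 23.1 CPM in J1 and 16.8 in K2, but J2, with a stromal sum of 1350 CPM, had the highest alpha sum of 29.9. L1 had a similar stromal sum of 1480 CPM and an alpha sum of 8.3. K2 exceeded K1 in the alpha sum, 16.8 against 7.54 CPM, and in the beta sum, 11.9 against 6.57. In the gamma sum K2 was lower, at 121.0 against 145.0 CPM. Apart from this, neural markers summed to 22.5 to 78.5 CPM in WT libraries, highest in K2, and to 16.6 to 39.1 in KO libraries, with 15 of 17 at 10 or more counts somewhere and none at 0 in every library. Endothelial markers summed to 14.2 CPM in J1 and 9.03 in J2, against 2.23 to 5.73 in the other libraries. Of these 9 markers, 7 reached 10 counts somewhere, and CDH5 never exceeded 2 counts. Epithelial markers summed to 230.0 CPM in J1 and to 60.3 to 72.9 in the others. Pluripotent markers summed to 21.8 CPM in K2 and to 1.61 to 9.94 in the others. The part of these other transcripts in the protocadherin values was not tested.

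**Figure D4:**
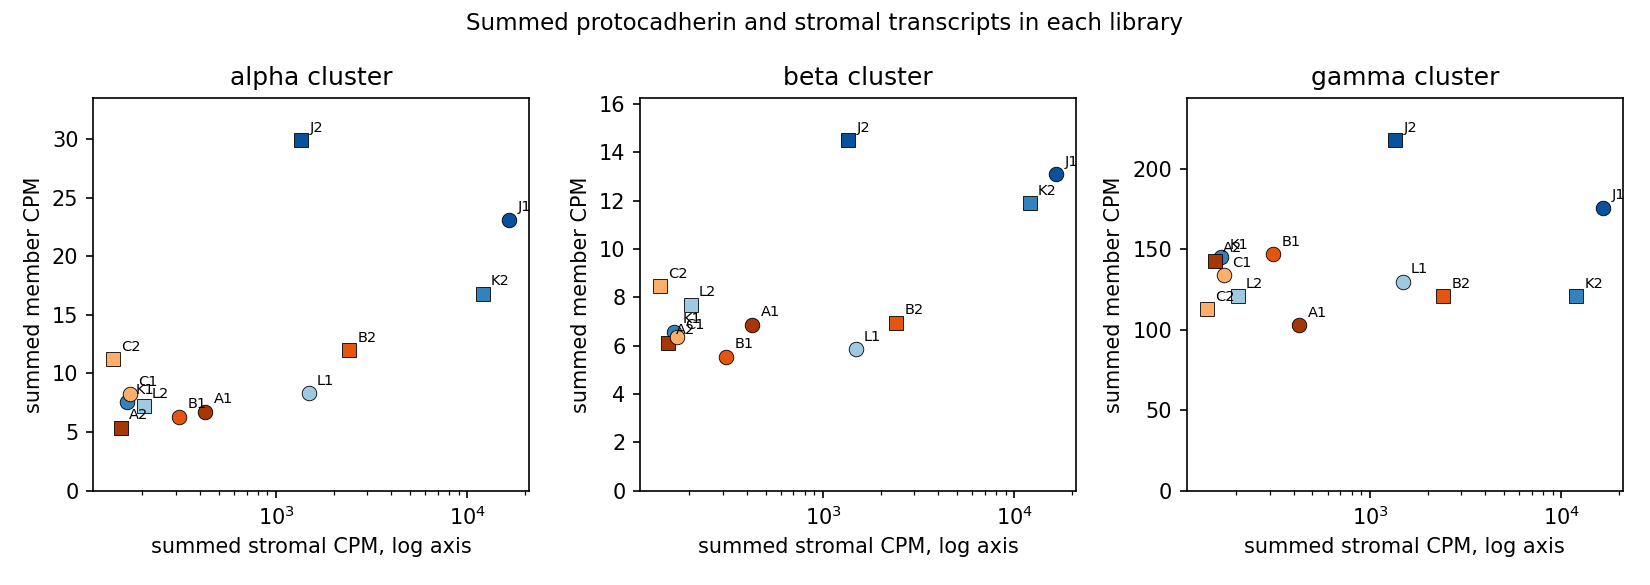
Summed CPM of the members of each cluster (vertical axes, from 0) against the summed CPM of 20 stromal markers (horizontal, log axis), a point for each library, coloured by clone (WT blue, LACTB KO orange). J2 has the highest sum of every cluster at a stromal sum of 1350 CPM, and K2, with 12000 CPM, is not raised in the gamma cluster.

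LACTB KO was compared with WT over the clones, each the sum of its 2 differentiations. Fitted levels of most members were lower in the KO clones, by amounts that did not pass the test and with directions that depended in part on WT clone J. Of the 25 members that passed the filter, 0 had an adjusted p under 0.05 in edgeR, as did 0% of the 17577 genes tested. LACTB, the edited gene, had a log2 fold change of -1.87 ± 0.67 (SE) and an adjusted p of 0.735 in this test. A lack of calls here therefore does not show that levels were equal. An unadjusted p under 0.05 was reached by 5 members (20%), beside 6.36% of all genes. All 5 were lower in LACTB KO, and 5.56% of all genes were both under 0.05 and lower. With DESeq2, PCDHAC2 alone was called among the 25 members, and 171 genes in all.

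These 5 were PCDHAC2, PCDHAC1, PCDHB13, PCDHGB7 and PCDHA12. PCDHAC2 had a log2 fold change of -3.03 ± 0.61 (SE) and an adjusted p of 0.726, and rested on 12 counts over the KO libraries and 102 over the WT libraries. PCDHAC1 had -2.48 ± 0.58 with the same adjusted p, on 9 and 47 counts. The abundant PCDHGB7 had -0.90 ± 0.32 (adjusted p = 0.735), from 14.9 ± 6.88 CPM in WT to 7.89 ± 1.85 CPM in KO libraries (SD, n = 6), a difference that did not set clone L apart from the KO clones. PCDHA12 and PCDHB13 each had a log2 fold change of -1.38, with adjusted p of 0.752 and 0.732.

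All KO clones lay below every WT clone for 4 of the 25 members, PCDHAC1, PCDHAC2, PCDHB13 and PCDHGC5, beside 6.37% of all genes, and all KO clones lay above every WT clone for 0. Without regard to the test, the log2 fold change was under 0 for 23 of 25 members, as for 48.3% of all genes, and above 0 for PCDHGB2 at 0.01 and PCDHGA11 at 0.25. Without clone J it was under 0 for 16 of 25 members and above 0 for 9, of which 4 were among the 9 alpha and 5 among the 11 gamma members. Its median was -0.85 over 9 alpha, -0.66 over 5 beta and -0.45 over 11 gamma members, against 0.0067 over all genes. When no filter was set, 53 members could be fitted, the medians were -0.85, -0.63 and -0.45, and 43 of the 53 were under 0. Members share constant exons, libraries and clones, so they are not independent of one another.

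Clone J weighed on these values. Without it, 2 of 25 members had an unadjusted p under 0.05, namely PCDHAC1 and PCDHAC2, and the medians were -0.47, -0.40 and -0.13. The log2 fold change of PCDHA12 was then -0.66 and that of PCDHGB7 -0.55, while those of PCDHA10 and PCDHGA10 turned from -0.62 to 0.25 and from -0.13 to 0.32. Without clone L, 11 of 28 members had an unadjusted p under 0.05, and without KO clone B 3 of 28. The share of all genes under 0.05 was not taken in the fits without a clone. These counts can therefore not be compared between settings. Without KO clone A the gamma median was -0.18. Without clone L the medians were -1.17, -1.08 and -0.21, and without KO clone B the beta median was -1.02. The beta median was -0.31 in differentiation 1 alone, from 1 member, and -1.13 in differentiation 2 alone, from 3. Leaving out the stromal-rich libraries J1 and K2 gave medians of -0.98, -0.61 and -0.45 over 21 members and moved PCDHAC2 to -2.09. With the stromal level as a covariate over the 12 libraries and no clone term, 13 members passed the filter and the medians were -0.28, -0.53 and -0.31.

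**Figure D5:**
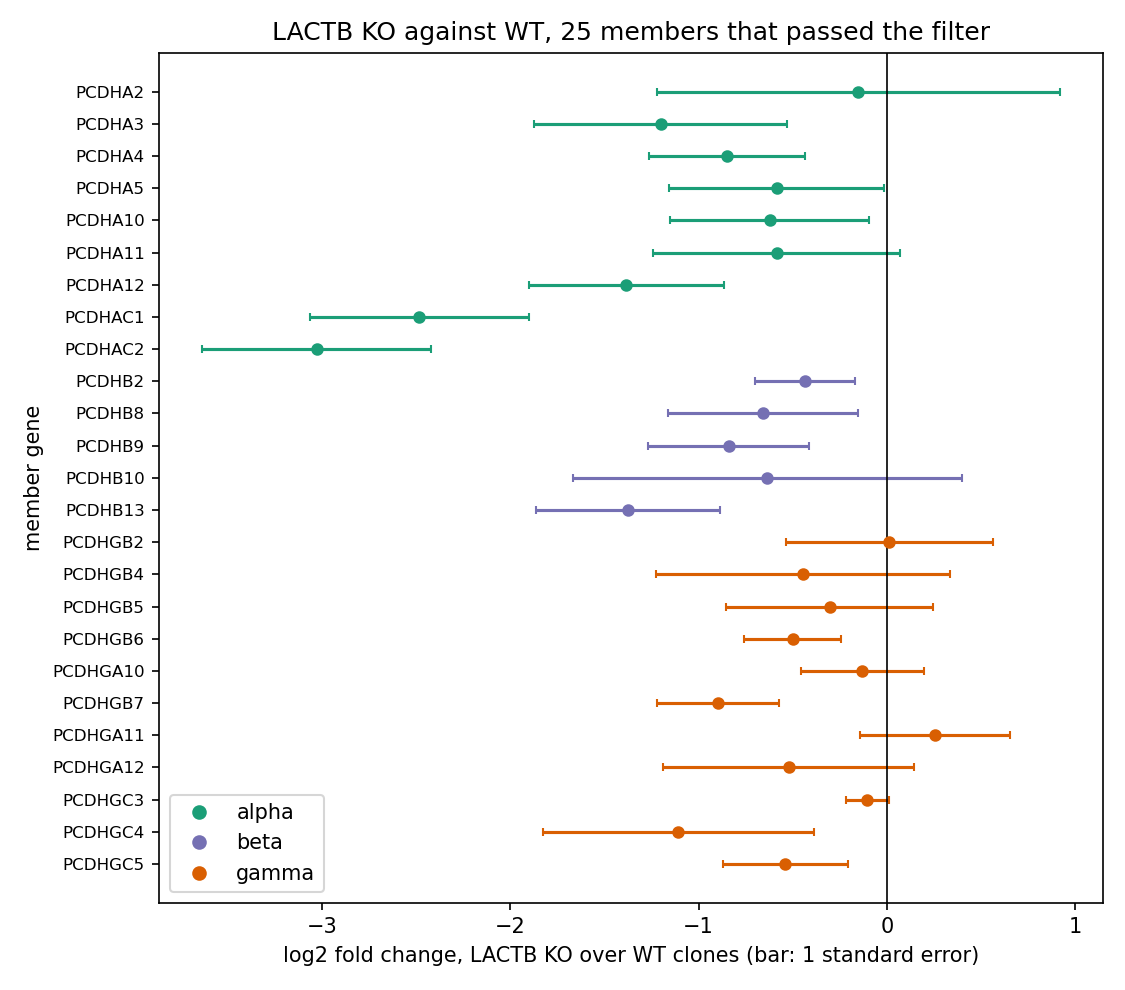
Log2 fold change of LACTB KO over WT clones (horizontal, bar 1 SE) for the 25 members that passed the filter, by cluster (colours) in locus order. All but PCDHGB2 and PCDHGA11 lie under 0, where 9 of 25 were above 0 without clone J, PCDHAC2 is farthest at -3.03, and none has an adjusted p under 0.05.

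As summed levels, the alpha cluster came to 15.5 ± 9.49 CPM in WT and 8.31 ± 2.72 CPM in KO libraries (SD, n = 6 libraries of 3 clones each). The beta cluster came to 9.94 ± 3.68 and 6.71 ± 0.996 CPM, and the gamma cluster to 152.0 ± 38.4 and 127.0 ± 17.4 CPM. In every cluster the ranges of the genotypes overlapped and the WT spread was wider.

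Between differentiations 2 and 1, compared within clones, 0 of 13 members had an adjusted p under 0.05, as did 0% of 15530 genes. PCDHB2 was the single member with an unadjusted p under 0.05, with a log2 difference of 0.33 (adjusted p = 0.459), beside 9.95% of all genes. DESeq2 called 0 of the 13 members and 299 genes in all. For the test of whether the genotype difference changed with the differentiation, 0 members were called, again beside 0% of genes, and PCDHGB6 alone had an unadjusted p under 0.05, beside 0.908% of genes. DESeq2 called 0 members there as well, and 0 genes in all.

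Genes that act with the clustered protocadherins were looked at in lists. Of 13 regulators of the locus all were tested and 0 had an adjusted p under 0.05. DNMT3B, the DNA methyltransferase known to methylate protocadherin promoters, was the one regulator with an unadjusted p under 0.05, at a log2 fold change of 0.37. Among 19 downstream effectors, WASF3 and NCKAP1, members of the WAVE complex that binds protocadherin tails, had an unadjusted p under 0.05, with log2 fold changes of -0.52 and -1.71. These numbers, 1 of 13 regulators and 2 of 19 effectors, are near the 6.36% of all genes under 0.05. NCKAP1 ranged from 2.4 to 25.5 CPM in WT and from 2.05 to 6.06 in KO libraries.

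Protocadherins and FAT-family relatives outside the clusters were at lower fitted levels in KO clones, again without passing the test. All 14 that were tested of 17 had a log2 fold change under 0, as did 48.3% of all genes. Their median was -1.43, against 0.0067 over all genes. Of these, 8 had an unadjusted p under 0.05, beside 6.36% of all genes, with adjusted p of 0.726 or more. FAT4 had -1.46, PCDH7 -3.02, PCDH10 -2.83 and FAT3 -2.56. Their summed level was 103.0 CPM in J1 and 129.0 in K2, against 9.91 to 48.7 CPM in the other libraries, so that they were highest where the stromal markers were, of which 17 of 19 tested had an unadjusted p under 0.05 with lower values in KO. Among 10 neighbours of the locus, 9 were tested, none had an unadjusted p under 0.05, and 6 had a log2 fold change above 0. TAF7, a general transcription factor gene inside the locus, was at 113.0 ± 10 CPM in WT and 116.0 ± 8.73 in KO libraries (SD, n = 6), and SLC25A2, also inside it, never exceeded 3 counts.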

How the data were processed

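RNA-seq of 12 iMGL libraries was analysed. According to the labels and the study's methods, polyA RNA was made into libraries with the TruSeq RNA kit v2, reads were trimmed, aligned to hg38 with STAR and tabulated per gene; the tool that counted them is not given in the sources used here. The authors deposited estimated counts per gene, not scaled between libraries. They were rounded before any test. The design had assumed whole counts. Members and gene lists were chosen with earlier results of these data known. Values are given for members with 10 or more counts in at least 6 libraries; PCDHAC1, PCDHAC2, PCDHB13 and PCDHGA7 were added after their values were seen. List genes are those with an unadjusted p under 0.05, smallest first, at most 4 a list, plus LACTB and, as genes inside the locus, TAF7 and SLC25A2. Marker TMEM119 was added after its values were seen.

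edgeR 4.0.16 in R 4.3.3 was run with TMM scaling, filterByExpr, the quasi-likelihood F test and Benjamini-Hochberg adjustment over all genes tested, with a threshold of 0.05, on clone sums for genotype and on 12 libraries for the other tests. DESeq2 1.42.0 and limma 3.58.1 were alternatives. CPM are TMM-scaled. SE is the log2 fold change over the root of F. The scripts were tested on simulated data. No 2 libraries of a genotype held the same values. The labels hold a batch tag that gives the differentiation number, and do not say whether clones with the same number were grown together. Deviations of WT and KO libraries over 18543 genes had a median correlation of 0.007 within and -0.037 between differentiations. Only the clone and differentiation labels separate the libraries, so p-values measure the spread among these clones or cultures.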

Additional observations from a re-analysis of the deposited data

Results flagged for a closer look

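The level of PCDHGB6 in WT library J2 was 46.2 CPM, far from the other 5 WT libraries, which lay between 17.1 and 27.7 CPM. Among 28 groups of 6 libraries checked for the 14 members with 10 or more counts in at least 6 libraries, it was the 1 such value, where chance flags about 1 in 20 groups. PCDHGA10 rose in CPM from differentiation 1 to 2 in each of the WT clones, by a mean of 9.46 CPM, and fell in each of the LACTB KO clones; clone J gave most of the WT mean. This direction was read from the values, and in the test across all genes PCDHGA10 did not pass for a genotype by differentiation term (adjusted p = 0.999 in edgeR).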

How the results depend on the processing

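No call on the members changed with RLE size factors, with any clone left out, or with a single differentiation. The number of members called between genotypes was 0 in edgeR and limma and 1 with DESeq2, which called 171 genes in all. Among clones of a genotype it was 0, with 7 genes called in all. It was 2 without a filter (PCDHGB4 and PCDHGA10), where 196 genes were called in all. With the stromal level as covariate it was 1 (PCDHGB4), of 34 genes called, and with DESeq2 it was 4, of 703 genes called. The causes were not tested. With differentiation as a replicate block over 12 libraries, 0 members were called between genotypes and 4 of 13 had an unadjusted p under 0.05. The share of all genes under 0.05 was not taken in that fit. Its medians were -0.74, -0.64 and -0.48 for alpha, beta and gamma. The fit held no clone term, so the 2 libraries of a clone entered as separate replicates, although the clone is the replicate for LACTB. No call on a member changed, but the unit and the members tested, 13 against 25, also differed from the main fit. Without clone J, 9 of 25 members were above 0 between genotypes, against 2 with all clones. The medians of all 3 clusters stayed under 0 in every setting run, but they rest on different numbers of members, from 1 to 22 a cluster. Low counts limit the C-type alpha and most beta genes, with totals of 9 to 12 counts over the 6 KO libraries for PCDHAC1 and PCDHAC2.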
